A study of Homo sapiens with 7 samples.

Results

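Heat shock genes of the cytosol and of the mitochondrial matrix were described in HCT116, a human colorectal carcinoma line, across transcription, mRNA abundance and polysome loading. The members were 10 gene symbols taken by name, HSPA8, HSP90AB1, HSPD1, HSPE1, HSPA1A, HSPA1B, HSP90AA1, HSPB1, DNAJB1 and HSPH1, and each had its own entry among the 20072 symbols of the deposited table. Heat shock proteins are molecular chaperones, which bind unfolded or partly folded proteins and keep them from aggregating. HSP70 proteins bind and release client proteins in a cycle driven by ATP, in which J-domain proteins bring clients and exchange factors reset the chaperone, and HSP90 proteins complete the folding of kinases and steroid receptors. Some of these genes are transcribed in every growing cell, while others are known for the steep rise that follows heat or proteotoxic stress, when the factor HSF1 binds heat shock elements in their promoters.

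TR, RA and TA are the parameters compared here, all in log-phase cells, with no heat or other stress treatment named. Transcription rate (TR) came from 2 GRO-seq libraries, which capture RNA extended by polymerases already engaged in isolated nuclei, mRNA abundance (RA) from 3 RNA-seq libraries of isolated mRNA, and translation activity (TA) from 2 libraries of mRNA in the polysome fractions of a sucrose gradient. All the libraries came from the same unmodified line, kept in serum-free medium with epidermal growth factor, insulin and transferrin. Cells for TA alone were treated with cycloheximide before lysis, and only GRO-seq involved chilled, swollen cells and a run-on in isolated nuclei, so the parameter and the handling of the cells cannot be told apart.

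The values are RPKM, reads per kilobase of exon and scaled to the library total, and are therefore levels per length and relative to each library. Library totals worked out from RPKM values were 3391897 and 5629982 reads for TR, 20299018 to 22532134 for RA and 22421062 and 30805391 for TA. Reads on listed genes made up 99.7% to 99.8% of these totals, so they are mostly totals of counted exon reads. TR had the fewest counted reads, and the number of reads sequenced cannot be read from these totals. Of 8 colon epithelial markers, 6 had a mean RA of at least 1 RPKM, with summed levels of 1909 to 2558 RPKM in the 3 RA libraries, and VIL1 and LGALS4 were below 1 RPKM. Markers of fibroblasts summed to 10.4 to 14.0 RPKM, of leukocytes to 11.9 to 33.9 RPKM and of endothelium to 0.209 to 0.355 RPKM, with 1 of 6, 1 of 6 and 0 of 4 markers at a mean of 1 RPKM or more.

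For comparison, the members were divided by general knowledge of the family into 4 constitutive genes (HSPA8, HSP90AB1, HSPD1 and HSPE1) and 6 inducible genes (HSPA1A, HSPA1B, HSP90AA1, HSPB1, DNAJB1 and HSPH1). For each gene, log2(RA/TR) was taken as the stability index, and log2(TA/RA) as the translation index. A gene was called when limma, fitted to log2(RPKM + 0.1) of all 7 libraries, gave a Benjamini-Hochberg adjusted p under 0.05 over the 14305 genes whose mean reached 1 RPKM in TR, RA or TA. All 10 members passed that filter. The pseudocount understates the change of low genes. The study's methods speak of biological replicates, but the labels do not state that they were separate cultures, so the p-values measure only the spread between these libraries, which may be technical.

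Letters of the heat shock element were read in RefSeq promoter windows (GRCh38.p14, 250 bases before to 50 bases after each start), because this element is the textbook feature that links the family. A pair of inverted units was searched as GAANNTTC or TTCNNGAA, and 3 alternating units as GAANNTTCNNGAA or TTCNNGAANNTTC. Each of these patterns reads the same on the other strand, apart from the 3-unit patterns, which turn into each other, and every 3-unit match also contains 2 overlapping pairs. Of 35116 windows of all genes, 4737 (13.5%) held a pair and 172 (0.490%) held 3 units. Among the members, which have 16 windows in that table, a pair was found in 9 windows of 8 genes and 3 units in 4 windows of 4 genes, HSPA8, HSP90AB1, HSPD1 and HSP90AA1. The 3-unit match nearest the start in each of these 4 genes is shown first, then a pair from each of the 4 inducible genes that held pairs only, with the matched letters in capitals, each 5′ to 3′ on the strand of its gene.
HSPA8, chr11:123062174-123062196, minus strand, 55 bases before the start: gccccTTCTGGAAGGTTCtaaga
HSP90AB1, chr6:44247826-44247848, plus strand, 112 bases before the start: gattgTTCTGGAAGCTTCtggat
HSPD1, chr2:197500065-197500088, minus strand, 245 bases before the start: attTTCTGGAAAGTTCTGGAAccg
HSP90AA1, chr14:102087115-102087137, minus strand, 88 bases before the start: ggttcTTCCGGAAGGTTCgggag
HSPA1A, chr6:31815429-31815452, plus strand, 106 bases before the start: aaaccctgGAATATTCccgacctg
HSPA1B, chr6:31827625-31827648, plus strand, 105 bases before the start: aacccctgGAATATTCccgacctg
HSPB1, chr7:76302483-76302506, plus strand, 182 bases before the start: taacgagaGAAGGTTCcagatgag
DNAJB1, chr19:14518459-14518482, minus strand, 77 bases before the start: gcggggcgGAAGGTTCtggagggg

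Letters of 3 units were present in 3 of the 4 constitutive genes and in 1 of the 6 inducible genes, and HSPE1 and HSPH1 held neither pattern in the windows searched. Distances are counted from the start of the window that held the match, which need not be the start of the canonical transcript. In HSP90AB1 only window 3, the one furthest downstream, held matches, and windows 1 and 2 held 0. The HSPD1 match shown lies outside the HSPE1 window, before its first base. These matches describe letters only, and the libraries hold no measurement of factor binding.

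HSPA1A and HSPA1B, neighbours on chromosome 6 that encode the stress-inducible HSP70, needed separate attention because their coding sequences are nearly identical. On GRCh37 the single-exon gene HSPA1A spans chr6:31783320-31785723 and the single-exon gene HSPA1B spans chr6:31795515-31798031, both on the plus strand, with start sites 12195 bp apart. Their coding sequences are 1923 bases each and differ at 4 bases (99.8% identity), the longest coding stretch without a difference is 1709 bases, and the encoded proteins of 641 residues do not differ. The coding window from base 1891 to base 1920 holds 2 of the differences, which are shown in capitals on the plus strand of GRCh37.
HSPA1A, chr6:31785424-31785453: tctgggtcaggcccCaccattgaggaggtA
HSPA1B, chr6:31797618-31797647: tctgggtcaggcccTaccattgaggaggtG

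Of the 50-base windows of the HSPA1A mRNA, 75.1% had an exact copy outside the gene, as had 71.6% of those of HSPA1B, and these shares were 72.4% and 68.9% for 100-base windows. In the other members the share of 50-base windows with a copy elsewhere ran from 0.212% in HSPH1 and 4.29% in DNAJB1 to 37.2% in HSPE1 and 41.3% in HSPD1, and that of 100-base windows from 0% in HSPH1 and DNAJB1 to 12.3% in HSPD1. The read length and the handling of reads with several matches are not given in the sources used here, so the split of reads between HSPA1A and HSPA1B is uncertain. Reads that match both genes may also have been left out. Their values are also given summed, which would not restore reads left out.

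**Figure D1:**
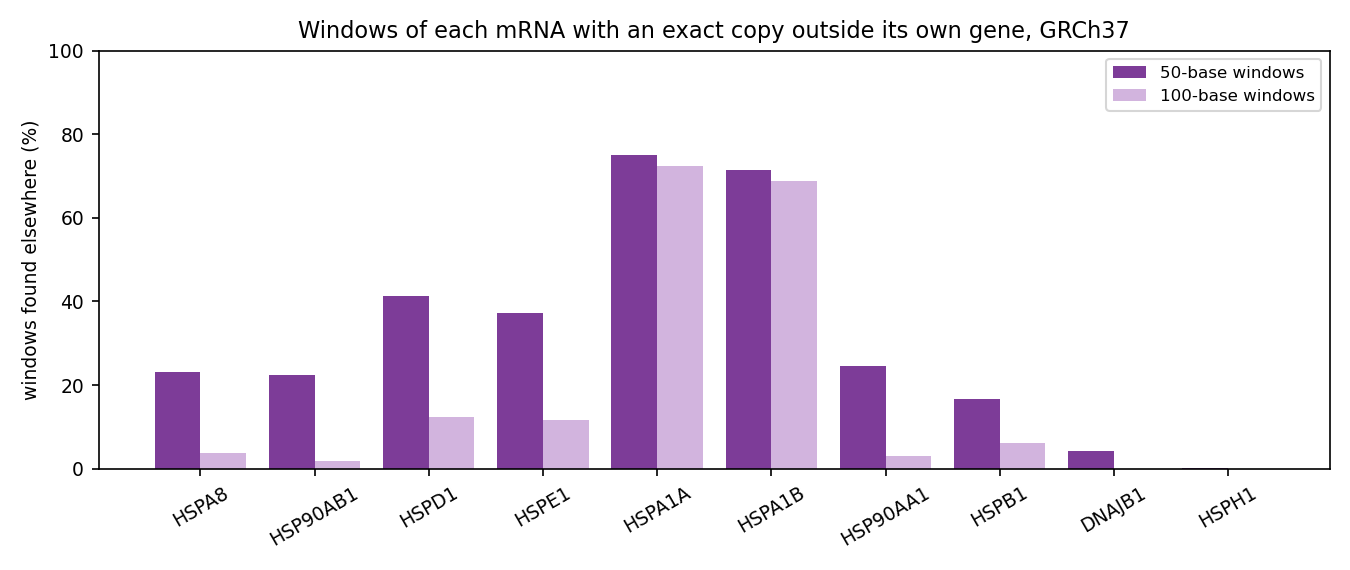
Bars give, for each member on the horizontal axis, the percentage of 50-base (dark) and 100-base (light) windows of its mRNA that had an exact copy outside its own gene in GRCh37. HSPA1A and HSPA1B stand near 70% at both lengths, whereas 100-base windows of the other 8 genes stay at or below 12.3%.

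Exons of 2 members also overlapped exons of another annotated gene. A readthrough transcript, HSPE1-MOB4, shares 192 exon bases with HSPE1 (34.5%), and it was listed at 0 reads in all 7 libraries. An unnamed long non-coding RNA covers 36.6% of the exon bases of HSPA1B and is not listed in the table. The strand setting of the counting and its rule for reads on bases shared by 2 genes are not given in the sources used here.

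The RNA-seq library of replicate 1 stood apart for these genes. It was the highest of the 3 RA libraries in 10 of 10 members, which was the case for 41.6% of the 10825 genes whose mean reached 1 RPKM in TR, RA and TA alike. Its level exceeded the mean of RA replicates 2 and 3 by 5.13 times in HSPA1B, 4.27 times in HSPA1A, 2.58 times in HSPE1, 2.46 times in DNAJB1 and 2.14 times in HSP90AA1. The excess was smaller in HSPB1 (1.79 times), HSPA8 (1.58 times), HSP90AB1 (1.54 times), HSPD1 (1.29 times) and HSPH1 (1.15 times). On the log2 scale the difference had a median of 1.03 over the members and 0.02 over the 10825 genes, whose 5th and 95th percentiles were -0.80 and 0.91, and the 2.35 of HSPA1B lay at percentile 99.9. Chaperones of the endoplasmic reticulum differed in the other direction, since HSPA5 stood at 329 RPKM in RA replicate 1 and at 1681 and 1023 RPKM in the other two, and DNAJB11 at 94.6 against 212 and 125 RPKM. This direction was not limited to that compartment. HSPA9, of the mitochondrial matrix, stood at 143 RPKM in RA replicate 1 against 226 and 156 RPKM. What set this library apart was not tested, and the indices are given with and without it.

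**Figure D2:**
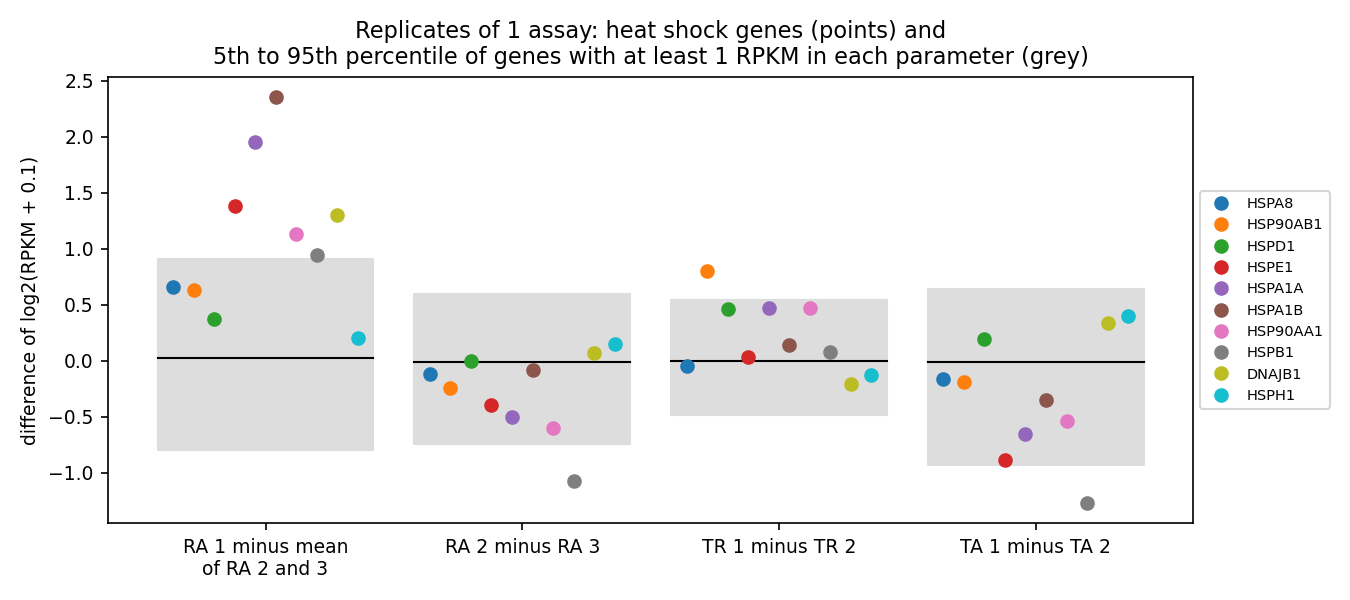
Points give the difference of log2(RPKM + 0.1) between replicates of the same parameter for each member, grey boxes the range from the 5th to the 95th percentile of 10825 genes, and black lines their median. All 10 members lie above 0 for RA replicate 1 minus the mean of RA replicates 2 and 3, and 6 of them lie above the grey box, up to 2.35 in HSPA1B.

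The remaining replicates differed less for most members. RA replicates 2 and 3 differed most in HSPB1, by -1.08 on the log2 scale, and TA replicates 1 and 2 also differed most in HSPB1, by -1.27. Between the TR replicates the largest difference was 0.80 in HSP90AB1, whose TR level was 315 RPKM in replicate 1 and 180.4 RPKM in replicate 2.

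In TR the levels of the members ranged over more than 2 orders of magnitude. HSPA8 had the highest mean, 329.5 ± 7.24 RPKM (SD, n = 2), above HSP90AA1 (248 ± 56.5), HSP90AB1 (247 ± 94.9) and DNAJB1 (232 ± 23.3). Next came HSPB1 (196 ± 7.30), HSPA1B (107 ± 7.50), HSPD1 (105 ± 23.6), HSPH1 (53.6 ± 3.45), HSPE1 (19.6 ± 0.29) and HSPA1A (2.29 ± 0.54). The neighbours HSP90AA1 and HSP90AB1, HSP90AB1 and DNAJB1, and HSPA1B and HSPD1 overlapped in their libraries, while each other gene lay above the next in both TR libraries.

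The order was different in RA. HSP90AB1 came first at 790.3 ± 217 RPKM (SD, n = 3), which was rank 38 among the 14305 genes, followed by HSPA8 (623 ± 176), HSP90AA1 (509 ± 254), HSPD1 (255 ± 39.4) and HSPB1 (252 ± 116). DNAJB1 (106 ± 60.1), HSPA1B (39.2 ± 39.3), HSPE1 (28.3 ± 17.1), HSPH1 (8.75 ± 0.84) and HSPA1A (1.29 ± 1.17) followed. Apart from HSPE1 above HSPH1 and HSPH1 above HSPA1A, neighbouring genes overlapped in range. The order of HSPD1 and HSPB1, and that of HSPA1B and HSPE1, differed between the RA libraries.

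In TA the first gene was again HSP90AB1, at 952 ± 88.0 RPKM (SD, n = 2) and rank 26, then HSP90AA1 (702 ± 183), HSPB1 (586 ± 343), HSPA8 (365 ± 29.4) and HSPD1 (319 ± 29.7). DNAJB1 (104 ± 17.1), HSPE1 (29.4 ± 12.4), HSPA1B (27.4 ± 4.69), HSPH1 (3.86 ± 0.76) and HSPA1A (1.06 ± 0.37) made up the rest. HSP90AA1 and HSPB1, HSPB1 and HSPA8, and HSPE1 and HSPA1B did not differ beyond the range of their libraries. HSPA8 was thus the first member in TR and the fourth in TA, and DNAJB1 stood above HSPD1 in TR and below it in RA and TA.

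**Figure D3:**
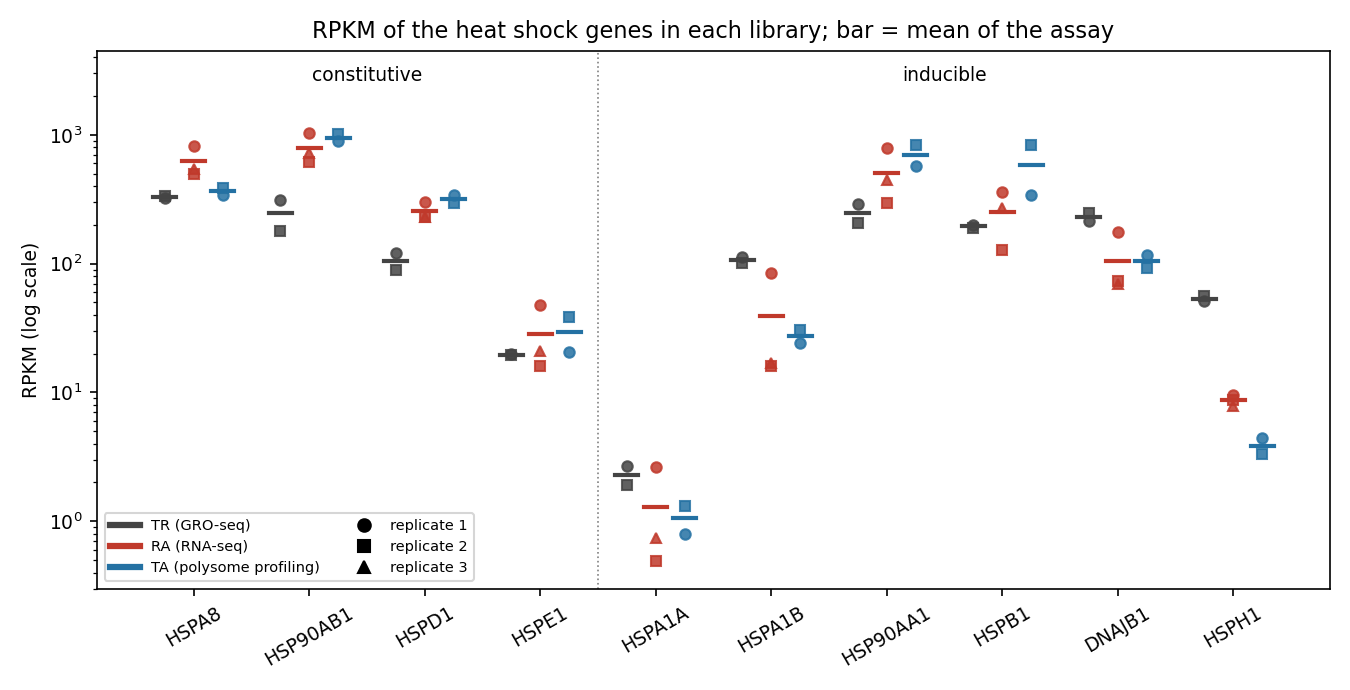
Each point is the RPKM (log axis) of a member in a library, coloured by parameter (TR, RA, TA) and shaped by replicate number, and each bar is the mean of a parameter. The RA and TA levels of HSPH1, at most 9.57 RPKM, lie far below its TR levels of 51.2 and 56.0 RPKM, while those of HSP90AB1 lie above its TR levels.

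Most constitutive genes had more RA than TR, and several inducible genes had less. Of the 4 constitutive genes, 3 were called with RA above TR (HSPA8, HSP90AB1 and HSPD1) and none with RA below TR, and of the 6 inducible genes none was called above and 3 were called below (HSPA1B, DNAJB1 and HSPH1). Without adjustment the counts were the same, and voom weights added HSP90AA1 above. In either direction 6 of 10 members were called, against 67.2% of all genes tested. Over these genes, 19.2% were called above and 48% below. The all-gene values in this paragraph include genes that pass only through TR, where the filter fixes RA below TR. They are therefore not a matched background for the members, all 10 of which reached 1 RPKM in TR, RA and TA alike. Among the 10825 genes that did so, 2632 were called above and 3656 below, and the member counts stayed at 3 and 3. The median stability index was 1.08 in the constitutive genes, -1.18 in the inducible genes and -0.58 over the 14305 genes. All 3 RA libraries lay above both TR libraries in 4 members, the called ones and HSP90AA1, against 24.3% of all genes, and below them in 3 members, against 54.9%. Centring each library on its median raised every stability index by 0.67 and every translation index by 0.50, and under that scaling HSPA1B and DNAJB1 were no longer called below, while HSP90AA1 was called above (1.61, adjusted p = 0.00903).

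Only 1 member was called in the translation index, HSPH1 with TA below RA, and none was called above, against 29.2% and 6.66% of all genes (35.8% in either direction). The median of this index was 0.23 in the constitutive genes, 0.07 in the inducible genes and -0.37 over all genes. Without adjustment limma gave 3 members a p under 0.05, HSPB1 above and HSPA8 and HSPH1 below, and voom weights also called 0 members above. Both TA libraries lay below all 3 RA libraries in HSPA8 and HSPH1, against 43.8% of all genes, and above them in 0 members, against 14.4%. With each library centred on its median, HSPB1 (1.71, adjusted p = 0.0305) and HSPD1 (0.83, adjusted p = 0.0375) were called with TA above RA. Both indices use the same RA libraries, so a high RA library raises the stability index and lowers the translation index together.

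**Figure D4:**
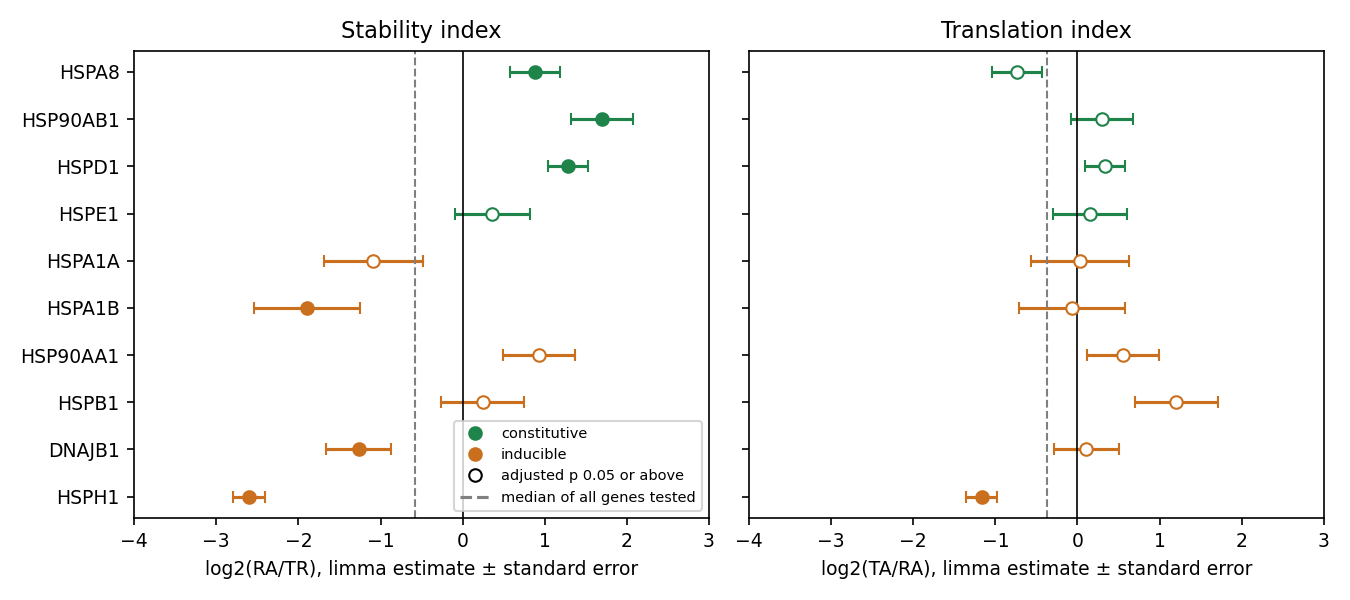
Points give the limma estimate of the stability index (left) and of the translation index (right) on the log2 scale with its standard error, for constitutive (green) and inducible (orange) members, filled where the adjusted p is under 0.05. The dashed lines mark the medians of all genes tested, -0.58 and -0.37; HSPH1 is filled and left of 0 in both panels.

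HSPA8 encodes HSC70, the constitutive cytosolic HSP70, which also strips clathrin from vesicles. Its gene (chr11:122928197-122933938, minus strand, 9 exons in the canonical transcript) had levels of 324 and 335 RPKM in TR, 824, 500.1 and 544 RPKM in RA, and 344 and 386 RPKM in TA. Every RA library was higher than every TR and TA library. HSPA8 had a stability index of 0.88 (SE 0.30, adjusted p = 0.0314) and a translation index of -0.74 (SE 0.30, adjusted p = 0.0920). Without RA replicate 1 they were 0.66 (adjusted p = 0.0421) and -0.52 (adjusted p = 0.130). The stability call was lost without TR replicate 1 (adjusted p = 0.126), TR replicate 2 (0.116), RA replicate 3 (0.0532), TA replicate 1 (0.0558) or TA replicate 2 (0.0550), with the index between 0.86 and 0.96.

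HSPA1B, which with HSPA1A encodes the HSP70 known for its steep induction by heat, had TR levels of 112 and 101 RPKM, above all its RA levels (84.6, 16.0 and 16.9 RPKM) and TA levels (24.1 and 30.7 RPKM). Its TR placed it at percentile 97.7 of the genes tested and its RA at percentile 85.4. RA replicate 1 lay far above the other two. HSPA1B had a stability index of -1.90 (SE 0.65, adjusted p = 0.0300), a 3.73-fold lower RA, and without RA replicate 1 it was -2.69 (adjusted p = 2.05e-05). The call was lost without TR replicate 1 (-1.83, adjusted p = 0.187), TR replicate 2 (-1.97, 0.169), RA replicate 2 (-1.49, 0.0570) or RA replicate 3 (-1.53, 0.0885), and with each library centred on its median (-1.23, 0.112). The translation index was -0.07 (SE 0.65, adjusted p = 0.955), and it turned to 0.72 (adjusted p = 0.0225) without RA replicate 1 and to 0.43 (adjusted p = 0.626) with centring.

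HSPA1A had the lowest level of the members in all 7 libraries and rested on few reads. TR levels were 2.67 and 1.90 RPKM, from 22 and 26 reads, with exact Poisson 95% intervals of 1.67 to 4.04 and 1.24 to 2.79 RPKM. RA levels were 2.64, 0.49 and 0.74 RPKM, from 130, 27 and 37 reads, and TA levels were 0.80 and 1.32 RPKM, from 60 and 72 reads. RA replicate 1 overlapped TR, and the other two RA libraries were below it. These intervals cover counting error only. The stability index was -1.09 (SE 0.60, adjusted p = 0.142), and it was called without RA replicate 1 (-1.74, adjusted p = 0.00318). The translation index was 0.03 (SE 0.60, adjusted p = 0.984). In libraries of whole cultures, fewer cells with an mRNA and less of it per cell cannot be told apart.

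Summed into 1 value, HSPA1A and HSPA1B had a stability index of -1.88 (adjusted p = 0.0309) and a translation index of -0.06 (adjusted p = 0.958), which differ little from those of HSPA1B, since HSPA1B was 22.9 to 53.3 times HSPA1A in the 7 libraries. That ratio and the sum both depend on how reads matching both genes were counted, which is not known.

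DNAJB1 encodes an HSP40, a J-domain protein that brings clients to HSP70 and speeds its ATP hydrolysis. The gene (chr19:14625581-14671203, minus strand) stood at 215 and 248 RPKM in TR, at 175, 72.8 and 69.4 RPKM in RA and at 116 and 92.1 RPKM in TA. All the RA and TA libraries were below both TR libraries. Its stability index was -1.27 (SE 0.39, adjusted p = 0.0208), and -1.70 (adjusted p = 0.000288) without RA replicate 1. The call was lost without TR replicate 1 (-1.37, adjusted p = 0.107), TR replicate 2 (-1.16, 0.162) or RA replicate 3 (-1.03, 0.0679), and with centring (-0.59, 0.203). The translation index was 0.11 (SE 0.39, adjusted p = 0.859), and no call was made in either direction.

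HSPH1 encodes HSP105, an HSP110 protein that acts as an exchange factor for HSP70. It lies on chr13:31709110-31736525, minus strand, and its canonical mRNA of 5244 bases in 18 exons was the longest among the members. TR levels were 51.2 and 56.0 RPKM, RA levels 9.57, 8.77 and 7.90 RPKM, and TA levels 4.40 and 3.33 RPKM. The 3 parameters did not overlap and descended from TR to TA. The stability index was -2.60 (SE 0.19, adjusted p = 9.14e-06), a 6.08-fold lower RA, and the translation index was -1.17 (SE 0.19, adjusted p = 0.00489), a 2.25-fold lower TA. These were -2.67 (adjusted p = 3.28e-05) and -1.10 (adjusted p = 0.00899) without RA replicate 1. Both calls were made whichever single library was left out, with ranges of -2.67 to -2.53 and -1.36 to -0.97, and with centring (-1.93 and -0.67).

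HSP90AB1 encodes HSP90β, the constitutive cytosolic HSP90, on chr6:44213903-44221625, plus strand. TR levels were 315 and 180.4 RPKM, RA levels 1033, 613 and 725 RPKM, and TA levels 889.7 and 1014 RPKM. The RA and TA libraries all lay above TR and overlapped each other. The stability index was 1.70 (SE 0.37, adjusted p = 0.00415), a 3.24-fold higher RA, and 1.48 (adjusted p = 0.00728) without RA replicate 1. The call was lost without TR replicate 2, the lower of the pair (1.29, adjusted p = 0.0643). The translation index was 0.30 (SE 0.37, adjusted p = 0.563).

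HSP90AA1 encodes HSP90α, the inducible form, on chr14:102547079-102606036, minus strand. TR levels were 288 and 208 RPKM, RA levels 789.5, 293 and 445 RPKM, and TA levels 573 and 831 RPKM. RA was above TR in every library, by a narrow margin for RA replicate 2, and overlapped TA. Its stability index was 0.93 (SE 0.44, adjusted p = 0.0921) and its translation index 0.56 (SE 0.44, adjusted p = 0.354), neither of which was called. The stability index was called without RA replicate 2 (1.27, adjusted p = 0.0178) and was 0.56 (adjusted p = 0.184) without RA replicate 1. Weights from the reads (limma voom) also gave a call (0.92, adjusted p = 0.0498).

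HSPD1 and HSPE1 encode HSP60 and HSP10, the barrel and the lid of the mitochondrial chaperonin, and lie head to head on chromosome 2, with the start sites of their canonical transcripts 539 bp apart. HSPD1 (chr2:198351308-198381461, minus strand) stood at 122 and 88.7 RPKM in TR, 300.2, 232 and 232 RPKM in RA, and 340.3 and 298 RPKM in TA. RA and TA were above TR in every library and overlapped each other. HSPD1 had a stability index of 1.28 (SE 0.24, adjusted p = 0.00187) and 1.16 (adjusted p = 0.00370) without RA replicate 1, and it was called whichever library was left out. The translation index was 0.33 (SE 0.24, adjusted p = 0.315).

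HSPE1 (chr2:198364864-198368173, plus strand) had levels of 19.8 and 19.4 RPKM in TR, 47.8, 16.0 and 21.0 RPKM in RA, and 20.6 and 38.2 RPKM in TA. RA overlapped both TR and TA, while both TA libraries lay above both TR libraries. Its stability index of 0.36 (SE 0.45, adjusted p = 0.499) became -0.10 without RA replicate 1, and its translation index was 0.15 (SE 0.45, adjusted p = 0.820), so no direction held for it. The partners, which both assemble as rings of the same symmetry, differed in level per length in each parameter, HSPD1 being 4.57 to 16.5 times HSPE1 in the 7 libraries. HSPE1 shares 34.5% of its exon bases with HSPE1-MOB4. Whether reads on those bases were left out of the HSPE1 count was not tested, and that would lower its RPKM. The exon length of HSPE1 worked out from its RPKM values was 953 bases, against 557 bases in the canonical mRNA. If the authors used that length, it lowers the RPKM of HSPE1 where the additional bases are not transcribed.

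HSPB1 encodes HSP27, a small heat shock protein that holds clients without ATP, on chr7:75931990-75933612, plus strand. TR levels were 201 and 190.5 RPKM, RA levels 358, 128 and 271 RPKM, and TA levels 344 and 829 RPKM. The replicates of RA and of TA were far apart. RA overlapped both TR and TA, while both TA libraries lay above both TR libraries. In HSPB1 the stability index was 0.24 (SE 0.50, adjusted p = 0.687), and -0.07 without RA replicate 1. The translation index, 1.20 (SE 0.50, adjusted p = 0.0953), was the highest of the members and was not called. It was called with centring, and in limma with the crossed replicate block described at the end (1.32, adjusted p = 0.0487). That block in effect sets RA replicate 3 aside. Leaving RA replicate 3 out without a block gave the same index and no call (adjusted p = 0.141).

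Both classes were then compared within libraries, where the scaling of a library cancels. The median of the constitutive genes over the median of the inducible genes stood at 1.40 and 0.922 for TR, at 4.33, 8.24 and 8.99 for RA, and at 4.88 and 5.57 for TA. On the log2 scale this was 0.18 ± 0.42 (SD, n = 2) in TR, 2.78 ± 0.58 (n = 3) in RA and 2.38 ± 0.14 (n = 2) in TA. The RA and TA libraries did not overlap with TR, and RA and TA overlapped each other. The ratio depends on the membership of the classes, and counting HSP90AA1 as constitutive gave 1.10 in TR, 4.04 in RA and 3.75 in TA, whereas summing HSPA1A and HSPA1B gave -0.19, 2.17 and 1.73. No test was made, since genes are not replicates.

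Ratios of 5 pairs of related members were compared across the 3 parameters with an exact permutation test of the 7 libraries (210 arrangements), adjusted over the 5 pairs. The statistic was the sum of squares between the 3 parameters, which has no direction. None passed after adjustment. With so few arrangements, a single pair with the smallest possible p would pass only narrowly, so this does not show that the ratios were alike. DNAJB1 over HSPH1, the J-domain protein over the exchange factor, was 4.20 and 4.43 in TR, 18.3, 8.30 and 8.78 in RA and 26.4 and 27.7 in TA (exact p = 0.0190, adjusted p = 0.0952). The 3 parameters did not overlap for this pair, and the lowest ratios were in TR.

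The inducible HSP70 gene HSPA1A relative to the constitutive HSPA8 had its lowest mean in RA, but the RA and TA libraries overlapped. HSPA8 exceeded HSPA1A by 121 and 176 times in TR, by 313, 1014 and 734 times in RA, and by 429 and 292 times in TA (exact p = 0.0571, adjusted p = 0.119). The size of this excess is uncertain, since reads matching both HSPA1A and HSPA1B may have been left out or given to HSPA1B. The inducible HSP90AA1 over the constitutive HSP90AB1 was 0.917 and 1.16 in TR, 0.765, 0.478 and 0.614 in RA, and 0.644 and 0.819 in TA (exact p = 0.0952, adjusted p = 0.119). Both TR libraries lay above all RA and TA libraries for that pair. HSPA1A over HSPA1B had log2 ratios of -5.56 ± 0.24 (SD, n = 2) in TR, -4.85 ± 0.29 (n = 3) in RA and -4.72 ± 0.26 (n = 2) in TA (exact p = 0.0762, adjusted p = 0.119). HSPD1 over HSPE1 was 2.41 ± 0.30 (n = 2) in TR, 3.32 ± 0.62 (n = 3) in RA and 3.50 ± 0.76 (n = 2) in TA on the same scale (exact p = 0.276, adjusted p = 0.276).

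The other genes of the heat shock network were taken from 7 lists of 76 genes, of which 72 were tested. In the stability index 27 were called with RA above TR (37.5%) and 22 below (30.6%), with a median of 0.30, against the 19.2% and 48% of all genes. In the translation index 10 were called with TA above RA (13.9%) and 13 below (18.1%), with a median of -0.01, against 6.66% and 29.2%. The same shares of all genes stand beside the counts of the single lists below. With each library centred on its median the network counts were 44 above and 14 below for stability, and 26 above and 3 below for translation. Over all 14305 genes, centring gave 5066 above and 4814 below for stability, and 2713 above and 1404 below for translation. With a minimum of 1 RPKM in each parameter the network counts were 26 above and 14 below for stability, and 9 above and 12 below for translation. Over all 10825 genes with that minimum, 2632 were above and 3656 below for stability, and 960 above and 3224 below for translation. Fewer genes were tested there, since genes that pass only through TR, where RA below TR is fixed by the filter, drop out. Single libraries also moved the network counts. Stability calls above numbered 17 without TR replicate 1 and 14 without TR replicate 2. Translation calls above numbered 5 without TR replicate 1, TR replicate 2 or TA replicate 2, 4 without RA replicate 3 and 1 without TA replicate 1, and those below numbered 6 without RA replicate 3 and 3 without TA replicate 1.

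Among 10 other genes of the HSP70 and HSP110 families, 5 were called above and 4 below in stability, and 2 above and 0 below in translation. HSPA9, the HSP70 of the mitochondrial matrix, was called in both, at 69.2 ± 5.23 RPKM in TR (SD, n = 2), 175 ± 44.3 in RA (n = 3) and 363 ± 116 in TA (n = 2), with indices of 1.31 (adjusted p = 0.00391) and 1.04 (adjusted p = 0.0252). HSPA5, the HSP70 of the endoplasmic reticulum, had the highest RA of the list, 1011 ± 676 RPKM, and a stability index of 2.68 (adjusted p = 0.00631). HSPA12B lay at the other end, at 15.6 and 18.7 RPKM in TR and 0.278 to 0.437 RPKM in RA, and it passed the filter only through TR. HSPA6, an inducible HSP70 gene, had 1 read in TR replicate 2 and 0 reads in the other 6 libraries, where 0 reads allow up to 3.

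Of 20 J-domain protein genes, 7 were called above and 4 below in stability, and 3 above and 5 below in translation. DNAJB11, a partner of HSPA5, had the highest stability index, 2.18 (adjusted p = 0.000712). DNAJC19, a subunit linked to the import motor of the mitochondrial inner membrane, had the lowest in both indices, -3.37 (adjusted p = 1.41e-05) and -1.37 (adjusted p = 0.00825), and fell from 49.8 and 58.7 RPKM in TR to 4.44 to 5.77 RPKM in RA. DNAJA1, a cytosolic HSP40, had the highest called translation index, 0.90 (adjusted p = 0.0422).

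Of 9 cofactors of HSP70, 4 were called above and 3 below in stability, and 1 above and 3 below in translation. BAG6 had a stability index of 1.44 (adjusted p = 0.000247), and the ubiquitin ligase gene STUB1, whose product CHIP marks HSP70 clients for degradation, had -1.59 (adjusted p = 0.00242). ST13, which encodes the HSP70-interacting protein Hip, was called above in both indices, at 1.18 (adjusted p = 0.000197) and 0.45 (adjusted p = 0.0473), and BAG5 below in both, at -1.03 (adjusted p = 0.000636) and -1.05 (adjusted p = 0.00411).

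Of 12 co-chaperones of HSP90, 6 were called above and 1 below in stability, and 2 above and 1 below in translation. CDC37, which recruits kinases to HSP90, had 66.7 ± 24.7 RPKM in TR (SD, n = 2) and 179 ± 32.6 RPKM in RA (n = 3), with a stability index of 1.46 (adjusted p = 0.00172). The gene called below was TTC4 (-1.34, adjusted p = 0.00470). STIP1, encoding the adaptor Hop that joins HSP70 to HSP90, was called above in translation (0.98, adjusted p = 0.0206), and PTGES3, encoding p23, below (-0.78, adjusted p = 0.0351).

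The 7 other genes tested from the small heat shock protein list were mostly low in RA. In stability 1 was called above and 6 below, and in translation 0 above and 1 below. HSPB6 stood at 22.0 and 22.8 RPKM in TR and at 0.0666 to 0.169 RPKM in RA. HSPB2, the gene called below in translation, was listed at 0 in both TA libraries. Its RA was 0.0586 to 0.116 RPKM, around the pseudocount of 0.1. HSPB6 and HSPB2 passed the filter only through TR, so RA below TR was fixed for them by the filter. The median stability index of the list was -4.83, the value of HSPB2. How many of the other genes called below also passed only through TR is not given here. The 6 calls below are therefore not a result about this list. The gene called above was HSPB11, whose place in this list rests on its symbol. It stood at 40.5 ± 19.5 RPKM in RA (SD, n = 3), with a stability index of 1.30 (adjusted p = 0.0161).

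Of 9 other mitochondrial chaperones and proteases, 3 were called above and 2 below in stability, and 1 above and 0 below in translation. TRAP1, the mitochondrial HSP90, had 41.9 ± 8.23 RPKM in TR (SD, n = 2), 173 ± 17.7 RPKM in RA (n = 3) and 262 ± 20.3 RPKM in TA (n = 2), with a stability index of 2.05 (adjusted p = 5.31e-05). HSCB, a J-domain protein of iron-sulfur cluster assembly, had -1.27 (adjusted p = 0.00271), and the protease gene HTRA2 had -0.64 (adjusted p = 0.0108) in stability and 0.77 (adjusted p = 0.0127) in translation.

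HSF1, the factor that induces the family, stood at 61.1 and 55.1 RPKM in TR, 73.1, 80.6 and 95.6 RPKM in RA, and 38.0 and 55.0 RPKM in TA. Both TA libraries lay below the 3 RA libraries, and the translation index was -0.85 (SE 0.21, adjusted p = 0.0191), with a stability index of 0.51 (SE 0.21, adjusted p = 0.0658). HSF2 was called in the opposite direction in translation, at 0.67 (SE 0.16, adjusted p = 0.0143). HSBP1, which encodes a protein that binds HSF1 trimers, was called above in stability (1.15, adjusted p = 0.00674) and below in translation (-1.11, adjusted p = 0.0191), and HSF4 below in both, at -1.90 (adjusted p = 9.49e-05) and -3.37 (adjusted p = 0.00128). HSF2BP, which encodes a partner of HSF2, was called below in stability (-2.56, adjusted p = 7.13e-05), and it passed the filter only through TR.

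Likeness of pattern was measured as the Euclidean distance over the 7 libraries between log2(RPKM + 0.1) values centred on the mean of each gene, among 14304 other genes. The nearest to HSPA1A were SLC25A10 (distance 0.47), HELLS (0.57) and KIF11 (0.64), each of which had, like HSPA1A, its highest RA in replicate 1. SLC25A10 stood at 46.3 RPKM in that library and at 13.6 and 21.2 RPKM in the other two. The nearest to HSPA8 were PALM (0.28), GNAI2 (0.33) and GJA3 (0.35), in which RA was above TR and TA in the means. GNAI2, for example, had means of 31.4 RPKM in TR, 52.1 RPKM in RA and 35.6 RPKM in TA.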

How the data were processed

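TR, RA and TA of HCT116 cells were taken from 1 deposited table of 7 libraries. Per the labels and the study's methods, the authors aligned reads to hg19 with TopHat, used HTSeq-count on exon regions and gave the result per gene as RPKM. CASAVA, TopHat and HTSeq are named in the submitters' processing notes. Their versions, the gene annotation, the strand setting and the rule for reads with several matches are not given in the sources used here. Counting over exons leaves nascent reads in introns out of TR, and RPKM scales every library to its own total, so an index is relative to the other genes. Isolation of mRNA was named for RA and TA and not for TR. Library sizes and exon lengths were worked out from the RPKM values themselves, each length being the smallest that made the reads whole in every library. The reads that follow were whole, within 0.001 of a read, for 100% of 111346 values above 0 (18187 symbols). Since the lengths were chosen to give whole reads, this is no separate check of them. Of the 20072 symbols, 16 had no values. Reads on listed genes made up 99.7% to 99.8% of the library sizes.

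The members, classes and gene lists were chosen with earlier results of these data known. Genes were fitted with limma 3.58.1 in R 4.3.3 on log2(RPKM + 0.1) with a trend in eBayes. The 7 libraries shared a fit, and p-values were adjusted by Benjamini-Hochberg over 14305 genes, with a threshold of 0.05. Tested on simulated data for the stability index (14305 genes), the fit called 197 of 200 genes changed by 2 on the log2 scale (98.5%) and 50 of 14105 unchanged genes. The simulation gave all genes the same spread beyond counting error and drew libraries independently. In the data, RA replicate 1 was the highest RA library in all 10 members. The simulated shares therefore do not give the error rates of the calls in these data. Pairs were compared with exact permutation tests in Python 3.11.15 (numpy 2.4.6, scipy 1.17.1, pandas 2.3.3), and plots were drawn with matplotlib 3.10.9. A count test was not run, since the files hold RPKM. Members were matched to the GENCODE v44lift37 annotation of GRCh37 and to RefSeq promoter windows of GRCh38.p14, where 10 of 10 had an entry. Coordinates of promoter letters are on GRCh38.p14 and all others on GRCh37. Named genes were the 10 members and, in each network list, the gene with the highest mean RA and those with the highest and lowest called value of each index, with HSF1, HSF2 and HSPA9, the 3 genes nearest in pattern to HSPA1A and to HSPA8, and features read through or related to a member. HSPA6 was chosen after its values were seen. Alternatives covered the pseudocount, the filter, centring of each library on its median, voom weights, HSPA1A and HSPA1B summed, the replicate block and each library left out in turn.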

Additional observations from a re-analysis of the deposited data

How the results depend on the processing

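The 3 calls above and 3 calls below among the members in the stability index, and the 1 call below in the translation index, were the same in number with pseudocounts of 0.01 and 1, without a filter and with HSPA1A and HSPA1B summed. With each library centred on its median, 1 member was called below in stability and 2 above in translation, and over all genes 5066 were called above in stability (2743 without centring), 2713 above and 1404 below in translation (953 and 4173 without centring). With a minimum of 1 RPKM in each parameter, 3656 genes were called below in stability, against 6870, from fewer genes tested. Leaving out each library in turn gave 1 to 4 members called above and 1 to 4 below in stability, and 0 to 1 above and 1 below in translation, with 200 to 1030 genes called above and 1806 to 4225 below in translation over all genes. The log2 ratios that changed sign when a library was left out were those of HSPE1 (-0.10 to 0.69) and HSPB1 (-0.070 to 0.67) in stability, and of HSPE1 (-0.29 to 0.61), HSPA1A (-0.42 to 0.68), HSPA1B (-0.48 to 0.72) and DNAJB1 (-0.13 to 0.54) in translation, none of which passed the threshold in the 7 libraries. The translation index of HSPA1A was also -0.048 with a pseudocount of 1, and that of HSPA1B 0.43 with centring. A replicate block on the numbers of the labels left 2 members called above and 1 below in stability, with HSPA8 (adjusted p = 0.0843), HSPA1B (0.0954) and DNAJB1 (0.0701) lost. Only RA replicate 3 bears the number 3, so its block term absorbed that library. The index estimates of the members therefore equalled those without RA replicate 3. The block left 0 network genes called above and 2 below in translation, and 109 genes above and 1387 below in translation. It gave translation indices of -0.17 for HSPA1A and -0.13 for DNAJB1. The numbers share no stated origin, and the deviations of replicates 1 and 2 correlated across 10825 genes at 0.15 between TR and RA, -0.56 between RA and TA and 0.02 between TR and TA, so the libraries were treated as sharing a number only. The highest correlation, 0.74, was between RA replicate 2 minus 3 and TA replicate 1 minus 2, and no fit was made with that pairing. A crossed block, chosen after seeing the data, in which TA replicate 1 shared its term with TR and RA replicate 2, and TA replicate 2 with TR and RA replicate 1, called 2 members above and 2 below in stability (without HSPA8 and DNAJB1) and 1 above, HSPB1, and 1 below in translation (HSPA1A -0.17, DNAJB1 -0.13). In the crossed block, too, RA replicate 3 alone held a term and was absorbed by it. Beyond the absorbed library, the causes of these changes were not tested. With a pseudocount of 1, the ranges of the parameter means of HSPA1A over HSPA8 (1.51 on the log2 scale) and of DNAJB1 over HSPH1 (2.35) passed the exact permutation test (adjusted p = 0.0476 each). The log2 ratio of the class medians moved to 1.10 in TR, 4.04 in RA and 3.75 in TA with HSP90AA1 counted as constitutive, to 0.93, 3.45 and 3.32 without HSPD1 and HSPE1, and to 2.17 in RA and 1.73 in TA with HSPA1A and HSPA1B summed.

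Depth limited HSPA1A most, with 22 and 26 reads in TR. With 2 or 3 libraries per parameter, the calls of HSPA8, HSP90AB1, HSPA1B and DNAJB1 each depended on single libraries, while those of HSPD1 and HSPH1 did not in any of the 7 fits with a library left out.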
